A study of Mus musculus with 2 samples.

Results

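The genes described here are 10 ubiquitin ligases, or substrate-binding subunits of ligases, that are linked to muscle wasting: Fbxo32, Trim63, Trim55, Trim54, Fbxo30, Fbxo40, Fbxo21, Asb2, Traf6 and Nedd4. They were taken by name from the RefSeq annotation of mm10, all 10 were found, and they were set against 21774 protein-coding genes. Binding of NRF1, nuclear respiratory factor 1, was profiled by chromatin immunoprecipitation and sequencing (ChIP-seq) of nuclei from skeletal muscle of wild-type mice on a C57Bl/6J background, in a study of male mice. A legend on the NRF1 target genes gives the mice an age of 9 weeks. The labels name no treatment, and the study places its NRF1 data at physiological glucocorticoid levels. It states a minimum of mice per condition for ChIP-seq in general, while the number of mice behind these libraries and whether they were pooled are not given in the sources used here. The series has 2 libraries. The labels name the NRF1 antibody for both, whereas a summary provided with the study names the second as input DNA. One list of 3226 peaks was deposited, whose peak names carry the title of the first library, so no value below has a replicate error. How deeply the libraries were sequenced is not known from the list, and a site under the peak threshold cannot be told apart from an unbound one. A list of NRF1 peaks holds no expression values, so the tissue label was not checked against muscle markers, and nuclei of other cells in the muscle are included.

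Ubiquitin ligases choose the proteins that are tagged with ubiquitin and sent to the proteasome. In skeletal muscle a few of them, led by Fbxo32 (atrogin-1) and Trim63 (MuRF1), are known for their induction by fasting, disuse and glucocorticoids, through FOXO transcription factors and the glucocorticoid receptor. NRF1 is a factor of the nucleus that binds GC-rich promoters as a dimer and is best known for genes of mitochondrial respiration. The study concerned muscle wasting under glucocorticoids and the demethylase LSD1 with its partner factors. The question put to the list here was whether NRF1 peaks lay at the promoters of these ligases.

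Of the 10 genes, only Nedd4 had an NRF1 summit in its promoter, defined as 1000 bp before to 100 bp after any annotated start. The remaining 9, Fbxo32 and Trim63 among them, had none. Over all protein-coding genes 2918, or 13.4%, had such a summit (Wilson 95% interval 12.96 to 13.86%, which covers counting error over genes only). A count of 1 in 10 is near this background and sets the ligases apart in neither direction. The same gene, and no other of the 10, was found with each of the 8 alternative settings for starts, window, overlap and peak threshold.

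The sequences before the starts show how unlike these promoters are. The 150 bases before a start are given 5′ to 3′ on the strand of the gene, from RefSeq for GRCm38.p6, with CpG dinucleotides and the word TATAAA in capitals. Nedd4 (chr9:72662181-72662330, plus strand) is shown because it carries the peak, and Fbxo21 (chr5:117976620-117976769, plus strand) because it is CpG-rich and carries none. Trim63 (chr4:134314970-134315119, plus strand) and Trim54 (chr5:31116462-31116611, plus strand) stand for the CpG-poor muscle promoters.
Nedd4: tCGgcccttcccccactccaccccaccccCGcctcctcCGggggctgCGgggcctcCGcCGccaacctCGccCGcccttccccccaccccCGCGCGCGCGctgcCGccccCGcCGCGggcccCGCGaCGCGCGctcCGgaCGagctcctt
Fbxo21: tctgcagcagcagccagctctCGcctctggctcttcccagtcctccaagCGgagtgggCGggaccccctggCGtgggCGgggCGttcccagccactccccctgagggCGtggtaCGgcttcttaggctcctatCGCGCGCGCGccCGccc
Trim63: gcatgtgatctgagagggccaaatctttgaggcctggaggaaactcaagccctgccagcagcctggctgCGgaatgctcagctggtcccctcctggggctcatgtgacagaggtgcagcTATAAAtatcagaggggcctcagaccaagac
Trim54: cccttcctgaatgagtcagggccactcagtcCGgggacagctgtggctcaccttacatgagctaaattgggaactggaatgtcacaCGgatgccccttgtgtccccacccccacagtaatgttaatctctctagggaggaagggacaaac

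Nedd4 has 24 CpGs in this stretch and Fbxo21 has 14. Trim54 has 2 and Trim63 has 1. Of 10 genes, only Trim63 had TATAAA on the sense strand from 45 to 15 bp before a start, where its first base was at -31. This word stood in that place in 3.74% of all genes, and 35 of those 814 genes, or 4.30%, had an NRF1 promoter peak.

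Nedd4 encodes a ligase with a HECT domain, which takes over ubiquitin itself before passing it to the substrate. The gene lies on chromosome 9 from 72662331 to 72749851 (mm10, plus strand) and has 3 annotated starts. At the first start, 2 peaks were called. The promoter peak ran from 72662241 to 72662553, with its summit 43 bp after the start, in an exon outside the coding sequence. Peak height is given as fold enrichment, the signal at the summit over the control background estimated by the peak caller. It was 8.64 for this peak, and the −log10 of its q-value was 27.8. The 2644 promoter peaks had a median of 11.1, and the middle 50% of them ran from 7.87 to 16.3. The Nedd4 peak was thus of ordinary height, above 31.4% of promoter peaks by fold and above 54.0% by q.

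The other peak of Nedd4 ran from 72663274 to 72663433, and its summit lay in an intron 1043 bp after the same start. Its fold enrichment was 6.79 and its −log10 q was 9.26. The summits were 1000 bp apart, and 117 promoter peaks, or 4.43%, had another summit at least that close. Both remaining starts of Nedd4, at 72693298 and 72702286, had no summit in their promoter. One more peak, with a fold enrichment of 9.89, lay 130058 bp before Nedd4 in the promoter of Rfx7, which encodes a transcription factor.

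NRF1 binds the palindrome GCGCATGCGC, and copies with at most 1 mismatch were searched on both strands. None of the 10 genes had such a copy in a promoter. Over all genes 12.9% had one, and 71.8% of these 2808 genes had a promoter peak. Exact copies stood in promoters of 391 genes, and 87.0% of these genes had a peak. The Nedd4 promoter peak therefore belonged to the 30.9% of promoter-peak genes, 901 in number, without a copy in a promoter. That no copy was found says only that these letters are not in these windows.

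The copies at the 2 Nedd4 summits are shown because the promoter peak and the intronic peak differed in them. Each is given with 10 bases to either side on the plus strand, with the copy in capitals, and strong peaks at promoters of other muscle ligases are shown beside them. The Nedd4 promoter copy lies at chr9:72662381-72662390, the intronic copies at chr9:72663369-72663378 and chr9:72663375-72663384, the Trim32 copy at chr4:65604999-65605008 and the 3 Ubr4 copies at chr4:139380392-139380401, chr4:139380421-139380430 and chr4:139380450-139380459.
Nedd4 promoter peak: caagcctcgcGCGCAGCCGCagagcgggtc
Nedd4 intronic peak, first copy: gtgtgtgtgcGCGCCTGCGCgtgcgcgcct
Nedd4 intronic peak, second copy: gtgcgcgcctGCGCGTGCGCgcctgcctgt
Trim32: ggacgtgctaGCGCATGCGCagaaggcagc
Ubr4, first copy: tgcggggcccGCGCACGCGCggtagttact
Ubr4, middle copy: tgcttcccgcGAGCATGCGCagggttgctc
Ubr4, last copy: cgccgccatgGCGCACGCGCagagggcatt

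The intronic summit had 2 overlapping copies with 1 mismatch each, centred 0.5 and 5.5 bp from it. At the promoter summit the best copy had 2 mismatches and was centred 11.5 bp away. The exact word of that copy, GCGCAGCCGC, stood in a promoter of 335 genes on either strand. Of the 243 among them without a copy of at most 1 mismatch, 101 had a promoter peak, or 41.6%. The word GCGCGCGCGC, also with 2 mismatches to the palindrome, was centred 54.5 bp before the Nedd4 start and 11.5 bp before the Fbxo21 start. Of 418 genes with it and no closer copy, 64 had a peak, or 15.3%. The first of these words was singled out because it lies at the observed summit. The same share was 8.12% for AGGCATGCGC, found at the last start of Nedd4, and 27.0% for GCGCATGTGT, found in Traf6, which had no peak. For the 5 words in Fbxo30, which had no peak either, it ran from 7.02 to 14.3%. All these shares count genes, so the word and the peak may lie at different starts of a gene. Nedd4 itself is counted with a peak under each of its words. The copy in Fbxo32 was not examined in this way. The promoter peak held 43 CpGs in 313 bp, at 75.4% GC, and the intronic peak 11 in 160 bp, at 58.1% GC.

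**Figure D1:**
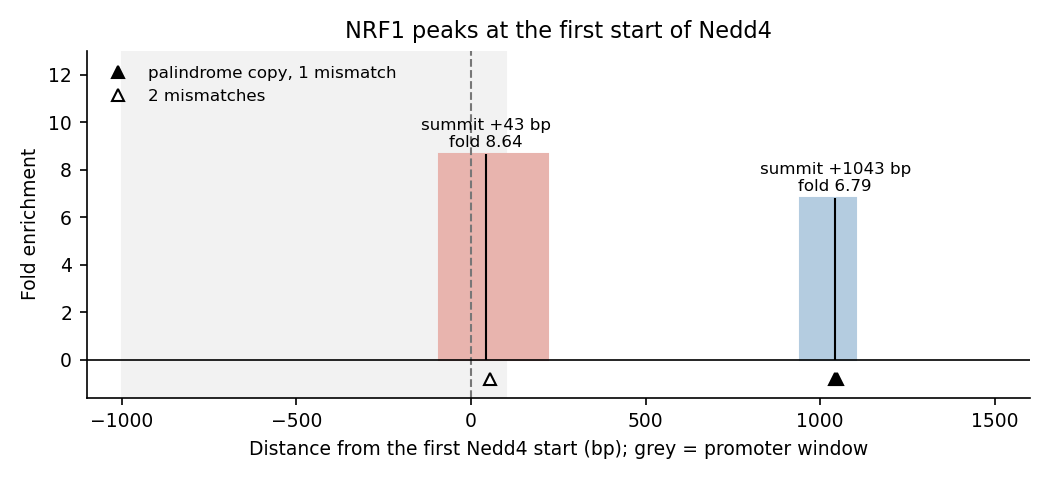
Peaks at the first start of Nedd4, with distance from the start in bp on the horizontal axis and the fold enrichment of each peak on the vertical axis. Boxes span the peaks, lines mark the summits at 43 and 1043 bp, and triangles mark copies of the palindrome within 100 bp of a summit; the copies with 1 mismatch lie at the intronic summit only.

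With at most 2 mismatches, copies were found in promoters of 5 of the 10 genes, against 41.1% of all genes. They were Nedd4 with 3 copies, Fbxo30 with 5, and Fbxo32, Fbxo21 and Traf6 with 1 each. In the class of genes whose best copy has 2 mismatches, 12.3% of 6139 had a promoter peak, and 1 of the 5 ligases did. Genes with no copy even then had a peak in 1.14% of 12827 cases. Trim63, Trim55, Trim54, Fbxo40 and Asb2 all belonged to that class, and none had a peak.

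CpG content divided the 10 genes in the same way. The number of CpGs within 200 bp of a start, taken at the richest start of each gene, had a median of 24.5 in the ligases and 25 over all genes. It was 40 in genes with a promoter peak. Trim55 and Trim54 each had 4 CpGs, Trim63 had 11, and Asb2 and Fbxo40 had 12. Fbxo32 had 37, Traf6 39, Fbxo21 40, Nedd4 51 and Fbxo30 59. None of the 10 fell between 12 and 37, so the ligases formed a CpG-poor and a CpG-rich set of 5 each. The CpG-poor set holds the 3 MuRF genes and 2 adaptors, and it is also the set without a copy at up to 2 mismatches.

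Over all genes the share with a promoter peak rose from 0.0905% at up to 9 CpGs to 3.61% at 10 to 19, 14.8% at 20 to 29, 22.7% at 30 to 39 and 27.0% at 40 or more. Among all genes with at least 30 CpGs it was 25.2%, and among the ligases with at least 30 it was 1 of 5. For Trim55, Trim54, Trim63, Asb2 and Fbxo40, having no peak was the usual state of genes with such promoters. For Fbxo32, Traf6, Fbxo21 and Fbxo30 it was the state of most genes in their classes as well.

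**Figure D2:**
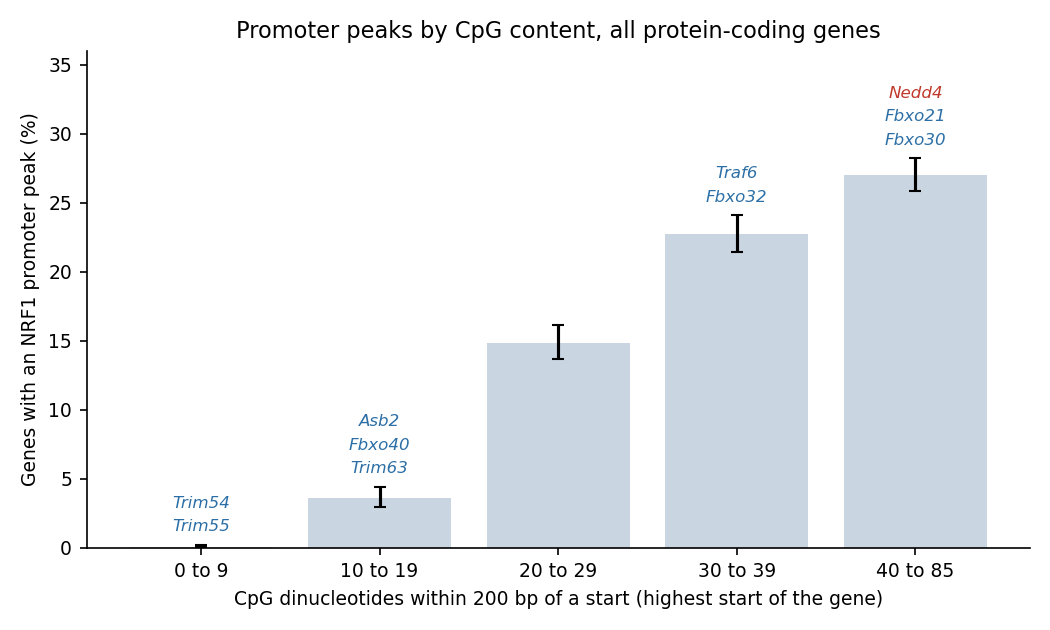
Share of protein-coding genes with an NRF1 promoter peak, by the number of CpGs within 200 bp of a start. Bars are shares in percent with Wilson 95% intervals, and the ligase genes are written above the class they belong to; 5 of them stand over the classes with up to 19 CpGs, where the share is at most 3.61%, and Nedd4 stands in the class with 27.0%.

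The distances to the nearest summit ranged over several orders of magnitude. The median was 89646.5 bp in the 10 ligases and 137236.5 bp over all genes, with quartiles of 28807 and 514153.8 bp. In 7 of the 10 the nearest summit was within 200 kb of a start, against 57.2% of all genes. Distances below are negative where the summit lies before the start, and percentiles give the share of genes with as short or a shorter distance.

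The F-box proteins bring substrates to the SCF ligase, which is built on the cullin CUL1. Fbxo32, whose known substrates include the translation factor eIF3f, lies on chromosome 15 from 58175879 to 58214892 on the minus strand. Its nearest summit was at -109399 bp (percentile 45.5), with a fold enrichment of 15.1, in the promoter of Klhl38, a kelch-family gene. It was the only summit within 200 kb. Fbxo30 (MUSA1), on chromosome 10 from 11281330 to 11305750 on the plus strand, had its nearest summit at -131993 bp, with a fold enrichment of 20.9, at the start of Shprh, itself a ubiquitin ligase gene. This was the highest fold enrichment among the nearest summits of the 10, although Fbxo30, the most CpG-rich of them, had no peak of its own.

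Fbxo21 (SMART), on chromosome 5 from 117976770 to 118010198, had its nearest summit 268567 bp after the start. That peak, of fold enrichment 6.34, was in the promoter of a coding gene. The nearest start was that of Spring1, a regulator of sterol-responsive transcription, 110 bp before the summit. Fbxo40, a muscle F-box protein known to target the insulin receptor substrate IRS1, lies on chromosome 16 from 36963461 to 36990530 on the minus strand. Its nearest summit was at -663941 bp, in the promoter of Ndufb4, a subunit of respiratory complex I. The motif occurred 3 times at that peak, whose fold enrichment was 13.7. Neither gene had a summit within 200 kb.

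The MuRF proteins are RING ligases of the sarcomere. Trim63 (MuRF1), on chromosome 4 from 134315120 to 134329629, had its nearest summit at -27792 bp (percentile 24.6), in the promoter of the kinase gene Pdik1l, with a fold enrichment of 10.2 and 1 copy of the motif. Further peaks lay at -127834 bp, in the promoter of Cep85, and at -158163 bp, in no promoter. Trim55 (MuRF2), on chromosome 3 from 19644344 to 19692584, had the closest summits of the genes without a promoter peak, at -15717 and -16064 bp. They had fold enrichments of 5.36 and 10.4 and lay upstream of a pair of tyrosine tRNA genes, at -155 bp from n-TYgta2 and -75 bp from n-TYgta1. The stronger one held 2 copies of the motif, the better of them exact, and the weaker one held none.

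Trim54 (MuRF3), on chromosome 5 from 31116612 to 31137626, had the most summits within 200 kb, 5, and all were in promoters of other genes. The nearest, at -61847 bp with a fold enrichment of 9.67, was at Cad, which encodes the enzyme that starts pyrimidine synthesis. On the other side lay Gtf3c2 at 63574 bp, Zfp513 at 85729 bp and Ift172 at 174549 bp. The strongest, with a fold enrichment of 25.7, was at Preb, 156264 bp before Trim54.

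Asb2 is the substrate adaptor of a CUL5 ligase. The gene lies on chromosome 12 from 103321142 to 103356001 on the minus strand, and its nearest summit was at -69894 bp, in the promoter of the RNA helicase gene Ddx24, with a fold enrichment of 15.7. A second lay at -176229 bp, in the promoter of Ppp4r4. Traf6 is a RING ligase of cytokine signalling. It lies on chromosome 2 from 101678420 to 101701668 and was the most remote of the 10, with its nearest summit 1395194 bp after the start (percentile 90.2), in the promoter of Apip, an enzyme gene of methionine salvage.

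The nearest summit thus lay in the promoter of another coding gene for 8 of the 10 ligases, upstream of tRNA genes for Trim55, and in its own promoter for Nedd4. Their fold enrichments, Nedd4 left out, ran from 5.36 to 20.9, around the median of 10.7 over all peaks. Of the 17 summits within 200 kb of a ligase, 13 were in promoters of coding genes, that of Nedd4 included, and 8 held the motif. Some of these 8 lay in no promoter. Of all 3226 peaks, 2644 were in promoters, and 65.8% of these 2644 held the motif. The difference from these shares was not tested.

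**Figure D3:**
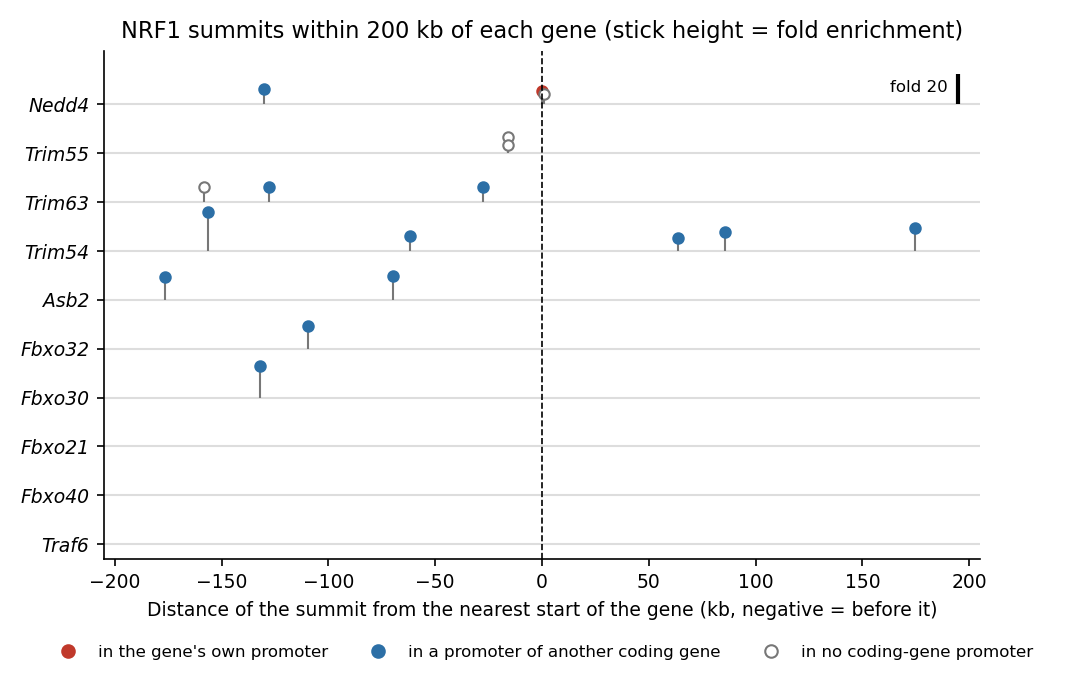
NRF1 summits within 200 kb of a start of each ligase gene, 1 gene per row, with distance in kb on the horizontal axis and the fold enrichment as the height of the stick. Filled points are summits in promoters of coding genes, of which 1 is the gene's own (Nedd4), and open points lie in none; Fbxo21, Fbxo40 and Traf6 have no summit in this range.

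**Figure D4:**
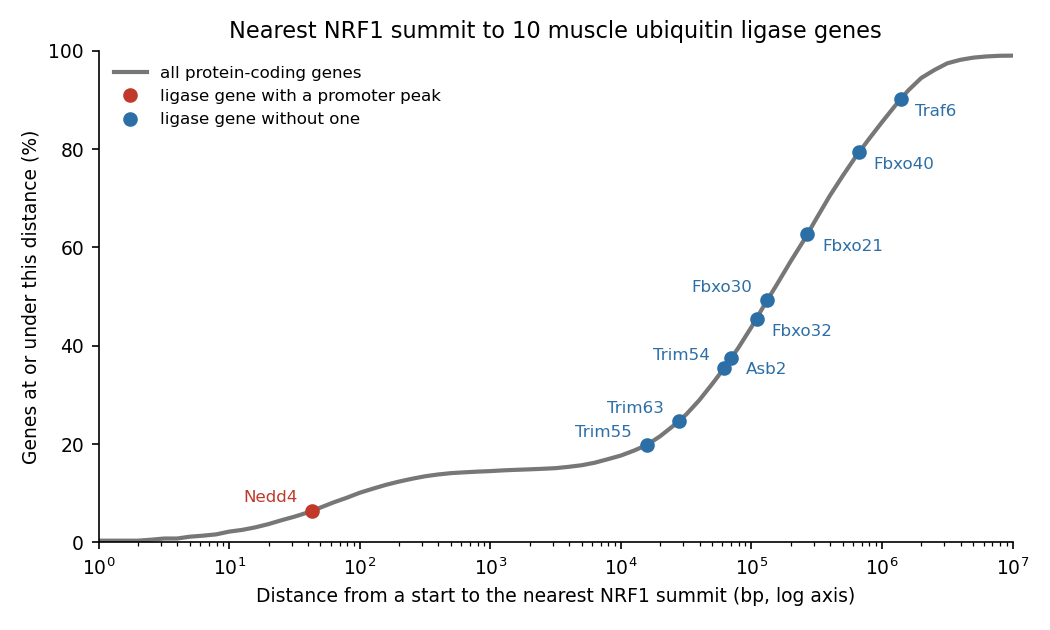
Distance from each ligase gene to its nearest NRF1 summit, in bp on a log axis, drawn on the cumulative share of all protein-coding genes in percent. Nedd4 lies at 43 bp and the other genes between 15717 bp (Trim55) and 1395194 bp (Traf6).

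Ligases act with other proteins, and the genes of these were examined by the same rule, with counts read beside the background of 13.4%. Of 21 genes of partners, that is E1 and E2 enzymes and cullin-complex subunits, 9 had a promoter peak, or 42.9%. They were the E2 variant Ube2v1 (fold enrichment 17.97), which lacks a catalytic cysteine and acts as a cofactor, the E2 enzymes Ube2d2a (13.3), Ube2j2 (12.0), Ube2g1 (9.81), Ube2b (8.77) and Ube2d3 (6.40), the cullin exchange factor Cand1 (17.0), the RING subunit Rbx1 (12.2) and the elongin subunit Elob (5.74). The cullins Cul1 and Cul5, the adaptor Skp1 and the E1 enzyme Uba1 had none.

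Of 20 other ligases or adaptors described in muscle, 10 had a promoter peak, or 50%. The strongest was at Trim32 (fold enrichment 29.4), a ligase mutated in a limb-girdle muscular dystrophy, followed by Ubr4 (27.6) and Wwp1 (24.7). Huwe1 (12.9), Fbxo9 (11.7), Asb15 (9.29), Ubr2 (8.19), Fbxo31 (6.83) and Mdm2 (6.19) were also among them. The peaks at Fbxo9, Fbxo31, Foxo3 and Kdm1a were already known when the lists were drawn up. Of the ligases with a peak named here, all but Ubr2, Fbxo31 and Mdm2 held the motif at the summit. Cblb, Stub1, Mul1, Trim72, Klhl40 and Klhl41 were among those with no promoter peak.

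The regulators had a peak at Foxo3 (17.3), Foxo4 (16.7), Nrf1 itself (12.5), Rela (9.51) and Kdm1a (4.29), which encodes LSD1, hence at 5 of 12. Foxo1, Klf15, Nr3c1 and Myog were among the 7 without one. Of 10 genes of proteins described as substrates 2 had a peak, among them Mylpf, which encodes a myosin light chain (18.8). The order of the lists by CpG content was not their order by share with a peak, and a relation between them was not tested. The median number of CpGs was 47 in the partners, 39 in the other muscle ligases, 52.5 in the regulators and 21 in the substrates. Among genes with at least 30 CpGs the partners had a peak in 9 of 17 cases, the other muscle ligases in 9 of 15, the regulators in 4 of 10 and the substrates in 0 of 3, against 25.2% of all such genes. These lists were drawn up with results of the same data known, and their difference from the 10 ligases was not tested.

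Close relatives of the ligases differed among themselves. Fbxo25, the nearest relative of Fbxo32, had a promoter peak (fold enrichment 6.97, −log10 q 8.75). Among 36 Fbxo genes 7 had a peak, or 19.4%, and the highest fold enrichments were those of Fbxo5 (18.98), Fbxo42 (17.7), Fbxo15 (14.5), Fbxo9 and Fbxo46 (7.35). Among 68 Trim genes it was 9, or 13.2%, led by Trim32, Trim37 (22.6), Trim23 (18.7), Trim13 (17.2) and Trim11 (15.1), and none of the MuRF genes was among the 9. Of 18 Asb genes, Asb15 and Asb8 had a peak, at 9.29 each, and of 7 Traf genes none did. In the NEDD4 family Wwp1, Itch (15.3), Nedd4 and Smurf2 (8.22) had a peak, 4 of 9. Nedd4 was the one of these 4 without a motif at its promoter summit, and Nedd4l, its closest relative, had its nearest summit at -395422 bp.

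**Figure D5:**
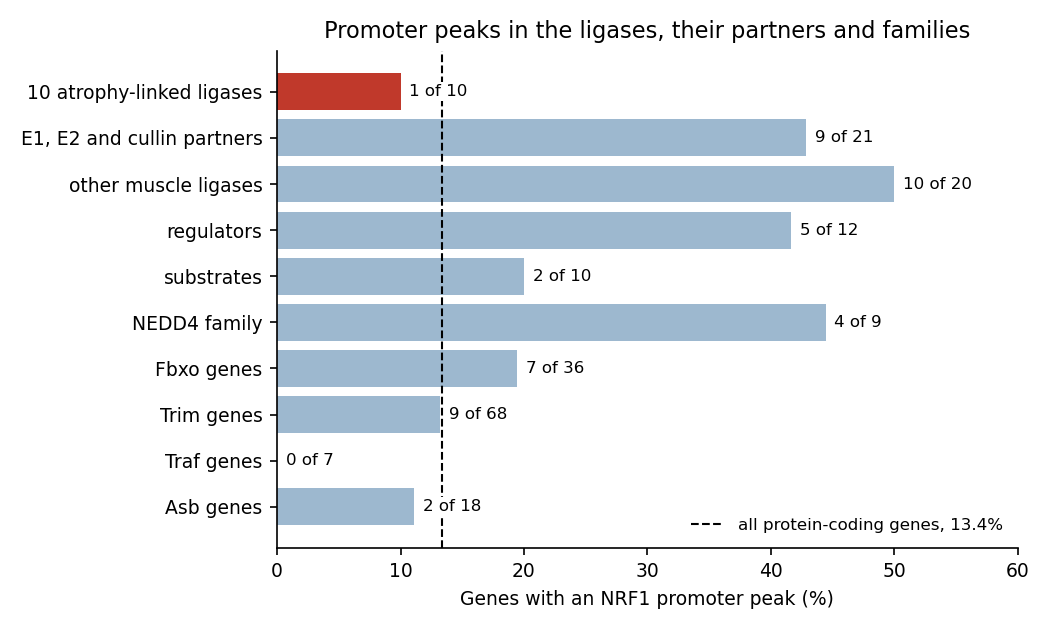
Share of genes with an NRF1 promoter peak, in percent, for the 10 atrophy-linked ligases (red) and for the lists and families compared with them (blue), with the number of genes beside each bar. The bars overlap: the families include those of the 10 ligases that belong to them, Nedd4 among them, and some other genes stand in several lists. The dashed line marks 13.4%, the share of all protein-coding genes; the ligases, with 1 of 10, lie near it, as do the Trim genes with 9 of 68.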

How the data were processed

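The authors mapped single-end reads to mm10 with Bowtie, kept unique reads, removed reads in blacklisted regions, for which the methods name a human build, and called peaks with MACS2 against input DNA. The methods name the broad option, while the list has the narrow layout, and they do not say whether libraries were combined. The deposited list gives a fold enrichment (a ratio), −log10 p and q, and a score of 10 times the −log10 q for each peak, with start, end and summit. The methods exclude peaks with a q-value above 0.01, but 7 listed peaks exceed it. The list is longer than the number of NRF1 peaks the study states, by more than those peaks, and was used as deposited. The list has no columns of single samples, and its values were taken as the authors' values for the list as a whole.

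Starts were those of all RefSeq transcripts of GRCm38.p6, predicted ones included, for protein-coding genes on chromosomes with peaks. Motif, CpG and distance values were computed with Python 3.11.15, pandas 2.3.3, numpy 2.4.6 and SciPy 1.17.1, and the search and distance functions were tested on simulated data. CpG and motif values of all 10 genes were read from the GRCm38.p6 genome. Promoter sequences were printed only for genes in a RefSeq promoter table, which held 8 of the 10 (not Fbxo32 and Trim55). No hypothesis test was run, since there is 1 list without replicates. Genes named were the 10 ligases, the gene nearest to each nearest summit, listed genes with a peak, and up to 5 per family with the highest fold enrichment. Some listed genes with a peak are counted but not reported here by name. Further names were chosen after their values were seen. The members and lists were chosen with earlier results of these data known.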

Additional observations from a re-analysis of the deposited data

How the results depend on the processing

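Of 54 alternative values for 14 results, 53 were the same as the value reported or, for counts and distances, within 1.5 times of it. The number of ligases with a promoter peak was 1, Nedd4, in all 8 alternatives. On RefSeq starts no window tried reached the nearest summit of another ligase, so this number could hardly rise. The number of all genes with a promoter peak ranged from 2784 at a fold enrichment of at least 5 to 3161 with the widest promoter window tried. Known transcripts only gave 2808 of 21000 genes. GENCODE M21 basic starts, chosen after seeing the data, gave 2902. The value that moved was the number of ligases with a motif in a promoter, 0 with at most 1 mismatch and 5 with at most 2. The share of all genes then rose from 12.9 to 41.1% by the same change. The number of ligases with a motif in a promoter was 0 with no mismatch and with known transcripts. Each of these searched only part of the copies or starts, so it could only give 0, and both are among the 53. With both other windows, which reach further after the start, the number was also 0. No paired analysis was possible because a single list covers the only group, and for the same reason no replicate could be left out. Without the read depth, weak binding at the 9 ligases without a promoter peak was not detectable here.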

Other observations

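At 2 listed genes of muscle with few CpGs around their starts, the promoter peak lay in sequence shared with a promoter of another gene. Asb15, a muscle adaptor of the Asb family with 7 CpGs, had its peak on chromosome 6 from 24527650 to 24527883, with the summit at -416 bp from its start and at -38 bp from the start of Ndufa5, a subunit of respiratory complex I with 28 CpGs. Mylpf, the fast-muscle myosin light chain with 16 CpGs, had its peak on chromosome 7 from 127208526 to 127208917. The summit was at -113 bp from Mylpf and at -267 bp from Tbc1d10b, which has 68 CpGs. Both peaks held 1 copy of the motif. These 2 genes were chosen after their values were seen. They were not the only ones with a shared peak. Among genes named above, the peak of Fbxo9 was shared with Cilk1 and that of Ube2b with Cdkl3. The peak of Fbxo15 was shared with Timm21, and that of Trim23 with Shld3 and Trappc13. For any such peak the list does not say which of the genes it bears on.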
